A study of Mus musculus with 8 samples.

Results

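The promoters of long noncoding RNA (lncRNA) genes were examined for H3K9ac, the acetylation of histone H3 at lysine 9. A member was a window of 1 kb on each side of a transcription start site (TSS) of a gene with the GENCODE biotype lincRNA, kept where its edge lay more than 2 kb from every TSS of a protein-coding gene. The rule kept 7336 of 8098 windows, at 5322 of 5854 lincRNA genes, among 55413 annotated genes of all types. The other 762 windows were left out, 532 genes kept no window, and 0 genes carried the biotype lncRNA in this annotation. Windows with an edge between 1 and 2 kb from a coding TSS, just outside the limit, had a peak in at least 1 list at 32 of 112, and those between 2 and 3 kb, just inside it, at 18 of 80.

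H3K9ac was profiled by ChIP-seq in bone marrow (BM) cells of C57BL/6 mice. The authors' methods name frozen BM cells, whereas the title of their figure on these data names cells positive for c-kit. All mice carried the *NUP98-HOXD13* transgene, a fusion gene that gives a myelodysplastic syndrome with progression to acute myeloid leukaemia. The mice carried *GFI1-36S* or *GFI1-36N*, the human GFI1 coding sequence with serine or asparagine at residue 36 in the murine locus, or *GFI1-KD*, with reduced expression of GFI1. For each genotype there was 1 library from mice without curcumin, which received DMSO (vehicle), and 1 from mice given curcumin, an inhibitor of histone acetyltransferases, at 20 mg/kg weekly by intraperitoneal injection. Ages were not given in the sources used here, and whether cells of several mice were pooled was not stated. With 1 library per group, the spread between mice is unknown, no test across mice was possible and no p-value is given.

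LncRNA genes are transcribed by RNA polymerase II, and many of their transcripts are capped, spliced and polyadenylated as those of coding genes are. Some, such as *Xist*, *Malat1* and *Neat1*, work as RNA in the nucleus, others host microRNAs or small nucleolar RNAs in their introns or exons, and for many no function is known. H3K9ac is laid down by acetyltransferases at nucleosomes that flank active start sites, so that a peak shows that the promoter carries the mark and is not a measure of the RNA.

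The 6 peak lists held 41312 and 20354 peaks with vehicle and curcumin in *GFI1-36S*, 39564 and 49213 in *-36N*, and 39272 and 30784 in *-KD* mice. The median peak had between 24 and 36 fragments at its summit. The *GFI1-36S* curcumin library stood apart from the others. It had peaks at the promoters of 13 of 14 T-cell genes (5 to 7 in the other lists), 1 of 12 neutrophil genes (8 to 12), 1 of 5 monocyte genes (5 in every other list), 1 of 8 erythroid genes (3 to 8), 1 of 7 stem and progenitor genes (6 or 7) and 3 of 4 genes of chromosome Y (0 in every other list). The treatments in the file names of the *GFI1-36S* pair are exchanged relative to its labels. The labels were followed, and values under the exchange are given where they matter. Peaks on chromosome Y without one at *Xist*, and T-cell peaks almost without myeloid ones, leave it uncertain whether this library holds the same kind of sample as its pair, so that its differences from vehicle and those between samples cannot be told apart. The file names of the *GFI1-36N* pair also give the 2 libraries different allele states, which the labels do not state, so that treatment and allele state cannot be told apart there. Of 6 genes used by blood cells in general, 5 or 6 had a promoter peak in each list, and of 9 genes of other tissues 0 to 2. In BM cells, fewer cells of a type and less of the mark per cell cannot be told apart.

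Promoter sequences of 7 members are given first, since the results return to them. Each runs 5′ to 3′ along the gene's strand from 250 bases before to 50 bases after the TSS, and was read from GRCm38.p6, the RefSeq release of the assembly mm10. Capitals mark matches on either strand to 6 motifs. The TATA box was searched as TATAAA. ETS factors were represented by CCGGAAG, and GATA factors by AGATAAG. The AP-1 motif was TGACTCA, whereas RUNX factors had TGTGGTTT. The Sp1 motif was GGGCGG. A match is a run of letters, not a shown binding site. The first pair had the highest mean rank of all members, at chr19:5845210-5845509 on the minus strand for *Neat1* and at chr13:48546451-48546750 on the minus strand for *6720427I07Rik*.
Neat1: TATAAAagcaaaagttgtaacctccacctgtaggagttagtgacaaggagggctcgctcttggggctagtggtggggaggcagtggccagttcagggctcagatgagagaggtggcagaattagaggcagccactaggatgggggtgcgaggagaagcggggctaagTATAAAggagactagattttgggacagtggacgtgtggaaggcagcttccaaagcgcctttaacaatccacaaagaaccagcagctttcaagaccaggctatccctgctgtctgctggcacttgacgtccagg
6720427I07Rik: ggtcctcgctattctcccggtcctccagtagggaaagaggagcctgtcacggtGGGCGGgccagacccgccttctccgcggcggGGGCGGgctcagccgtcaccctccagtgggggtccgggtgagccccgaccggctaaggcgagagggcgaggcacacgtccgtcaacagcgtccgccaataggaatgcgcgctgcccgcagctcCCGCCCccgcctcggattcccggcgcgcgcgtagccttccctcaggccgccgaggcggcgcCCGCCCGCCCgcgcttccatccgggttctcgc
*Neat1* held 2 matches to the TATA box, 6 CpG dinucleotides and 53.3% G + C, whereas *6720427I07Rik* held 5 matches to the Sp1 motif, some of them overlapping, 40 CpG and 73.7% G + C. Both promoters ranked above 98 in every list.

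Each of the next promoters had a peak in all 3 vehicle lists. It was missing from the *GFI1-36S* curcumin list at *Xist*, from the *GFI1-36S* and *-KD* curcumin lists at *0610043K17Rik* and from every curcumin list at *Bloodlinc*. *Xist* lies at chrX:103483205-103483504 on the minus strand, *0610043K17Rik* at chr4:101353533-101353832 on the plus strand and *Bloodlinc* at chr11:102376971-102377270 on the minus strand. *Bloodlinc* was added to the sequences after its values were seen.
Xist: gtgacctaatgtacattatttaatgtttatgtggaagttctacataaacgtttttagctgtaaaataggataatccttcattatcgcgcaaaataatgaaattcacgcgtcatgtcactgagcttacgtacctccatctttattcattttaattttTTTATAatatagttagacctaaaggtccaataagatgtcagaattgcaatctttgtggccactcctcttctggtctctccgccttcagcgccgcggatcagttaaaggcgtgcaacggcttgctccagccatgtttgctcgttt
0610043K17Rik: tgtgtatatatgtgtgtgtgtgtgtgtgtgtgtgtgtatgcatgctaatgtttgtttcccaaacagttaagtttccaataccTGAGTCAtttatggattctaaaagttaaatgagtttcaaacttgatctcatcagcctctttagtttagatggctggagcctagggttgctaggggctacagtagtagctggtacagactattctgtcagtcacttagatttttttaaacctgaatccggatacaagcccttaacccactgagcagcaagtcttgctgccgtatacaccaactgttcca
Bloodlinc: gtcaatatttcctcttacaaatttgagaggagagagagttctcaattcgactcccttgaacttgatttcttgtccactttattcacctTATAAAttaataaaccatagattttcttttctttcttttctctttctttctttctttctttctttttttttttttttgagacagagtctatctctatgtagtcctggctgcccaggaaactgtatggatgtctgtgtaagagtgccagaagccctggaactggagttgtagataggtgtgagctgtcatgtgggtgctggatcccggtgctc
*Xist* and *Bloodlinc* each held 1 match to the TATA box, and *0610043K17Rik* held 1 match to the AP-1 motif. These promoters contained 39%, 41% and 39% G + C with 13, 2 and 2 CpG.

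The last pair had the highest-ranked peak found with curcumin alone, *AL805899.1* in the *GFI1-36N* pair (chr4:88938472-88938771, minus strand) and *Gm49007* in the *GFI1-KD* pair (chr14:96992244-96992543, minus strand).
AL805899.1: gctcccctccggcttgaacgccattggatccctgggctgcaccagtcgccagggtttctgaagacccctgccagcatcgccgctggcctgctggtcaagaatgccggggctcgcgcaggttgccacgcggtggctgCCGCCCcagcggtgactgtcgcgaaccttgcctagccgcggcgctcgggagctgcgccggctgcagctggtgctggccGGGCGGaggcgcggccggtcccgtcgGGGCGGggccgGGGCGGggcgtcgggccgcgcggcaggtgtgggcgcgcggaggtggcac
Gm49007: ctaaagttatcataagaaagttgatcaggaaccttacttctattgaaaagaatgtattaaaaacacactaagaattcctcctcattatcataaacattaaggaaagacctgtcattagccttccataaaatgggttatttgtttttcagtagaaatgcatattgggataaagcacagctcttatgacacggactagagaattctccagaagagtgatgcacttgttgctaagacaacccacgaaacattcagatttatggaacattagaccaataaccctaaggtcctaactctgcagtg
*AL805899.1* held 4 matches to the Sp1 motif and 38 CpG at 75.7% G + C. *Gm49007* held none of the 6 motifs and 2 CpG at 35.7% G + C.

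Most lncRNA promoters carried no H3K9ac peak. Among the 5322 genes, a peak was found at 494 in vehicle-treated and 236 in curcumin-treated *GFI1-36S* mice, 487 and 584 in *-36N*, and 492 and 412 in *-KD* mice. These are shares of 9.28% (Wilson 95% interval 8.53% to 10.1%, counting error only), 4.43% (3.91% to 5.02%), 9.15% (8.41% to 9.96%), 11.0% (10.2% to 11.8%), 9.24% (8.50% to 10.1%) and 7.74% (7.05% to 8.49%). Over all annotated genes the shares with a promoter peak in the same order were 27.4%, 22.4%, 27.3%, 28.9%, 28.3% and 26.1%, and over the 21938 protein-coding genes they ran from 45.3% to 55.3%. The lncRNA share was therefore below that of all genes in every list. The *GFI1-36S* curcumin list had the lowest share for lncRNA, coding and all annotated genes alike, and it was the shortest list.

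LncRNA promoters nevertheless held the mark more often than the genome at large away from coding TSSs. Counted by window, 9.73%, 5.19%, 9.76%, 11.6%, 10.1% and 8.53% had a peak. Of 1200138 stretches of 2 kb more than 2 kb from every coding TSS, 1.83%, 0.533%, 1.86%, 2.35%, 1.93% and 1.304% had one. The ratio was lowest at 4.94 in the *GFI1-36N* curcumin list and highest at 9.75 in the *GFI1-36S* curcumin list. The windows and the stretches share each library, and the stretches include the lncRNA promoters themselves. The stretches come from all chromosomes and were not matched to the windows for distance from coding genes.

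**Figure D1:**
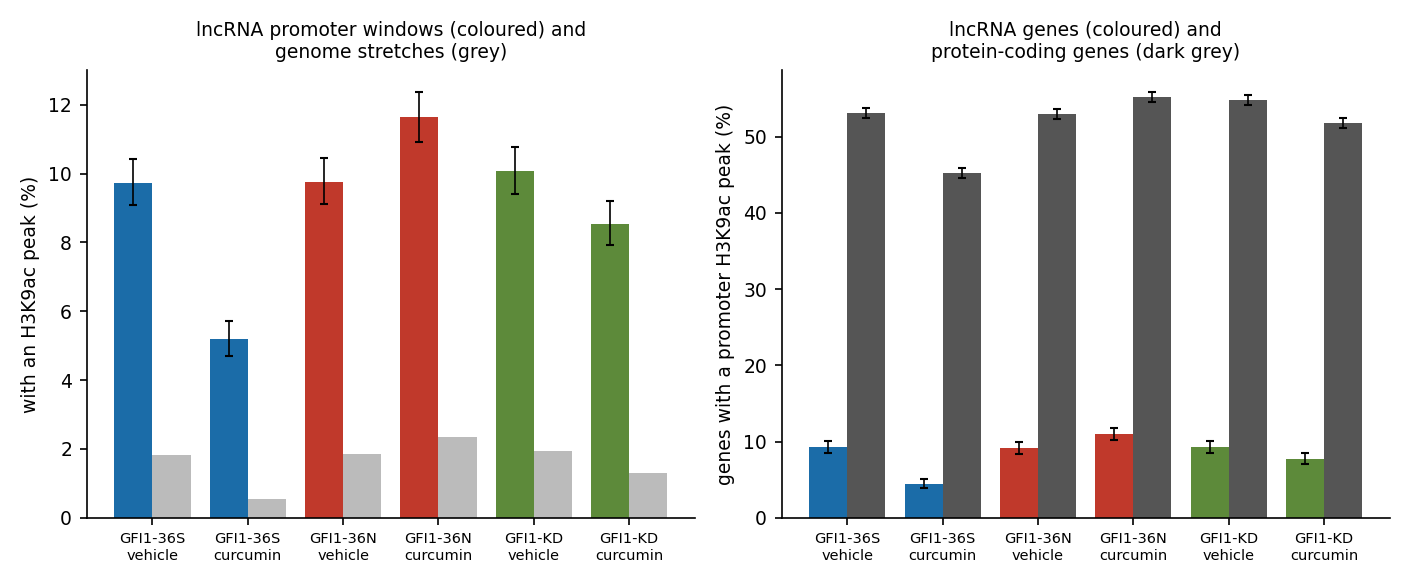
Left, percentage of lncRNA promoter windows (coloured by genotype) and of 2 kb genome stretches (grey) with an H3K9ac peak in each of the 6 libraries. Right, percentage of lncRNA genes (coloured) and protein-coding genes (dark grey) with a promoter peak. Bars show 1 library each, and error bars are Wilson 95% intervals for counting error only. The lncRNA windows run from 5.19% to 11.6% and lie above the stretches in every library, and the lncRNA genes lie below the coding genes.

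The peaks were centred on the annotated start sites. Each gene was represented by its most upstream TSS among the members. Coverage by a peak reached its maximum 100 bp downstream in 5 lists and 200 bp downstream in the *GFI1-36S* curcumin list. At that position 5.52% and 2.80% of lncRNA genes were covered with vehicle and curcumin in *GFI1-36S*, 5.24% and 6.43% in *-36N*, and 5.96% and 4.70% in *-KD* mice. Coverage 3000 bp upstream was between 0.564% and 1.62%. For coding genes the highest coverage, between 38.3% and 48.1%, lay 200 or 300 bp downstream. The summit of the strongest peak lay inside the window for 85.8% to 90.05% of the lncRNA genes with a peak, and downstream of the TSS for 61.0% to 67.8%. The remaining genes were reached by the flank of a peak with its summit elsewhere.

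**Figure D2:**
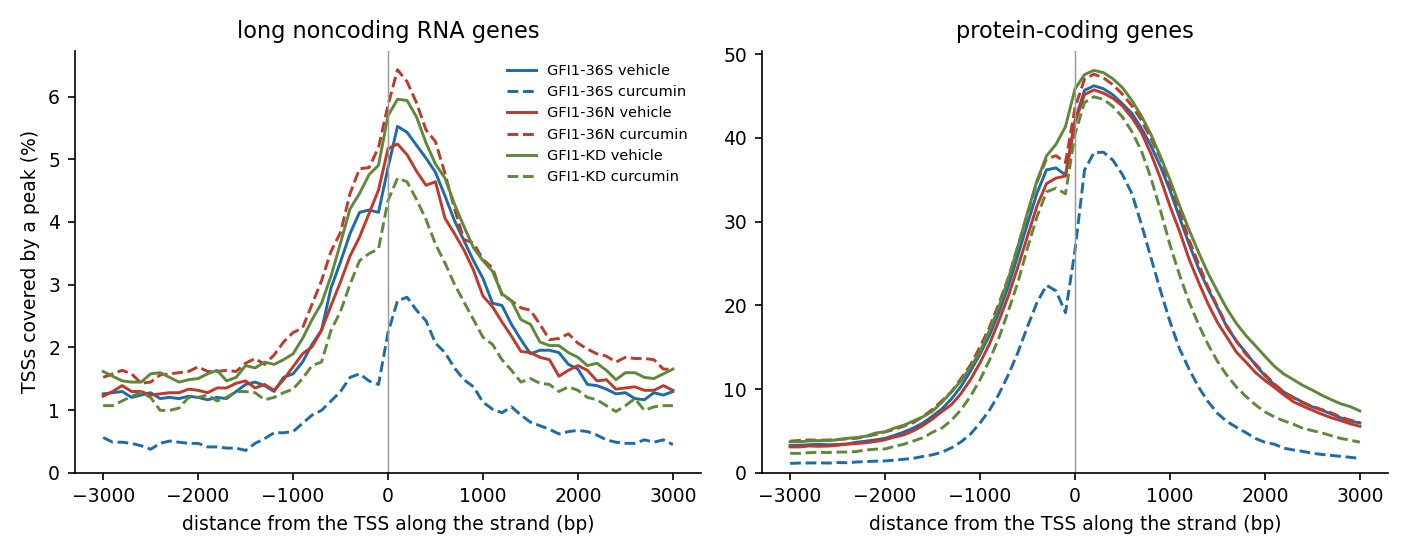
Percentage of TSSs covered by an H3K9ac peak against distance from the TSS in bp, for lncRNA genes (left) and protein-coding genes (right), with 1 TSS per gene. Lines are single libraries, coloured by genotype, solid for vehicle and dashed for curcumin, and the vertical axes differ in scale. Coverage of lncRNA genes reaches 6.43% with curcumin in *GFI1-36N* and 2.80% with curcumin in *GFI1-36S* mice.

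Peaks at lncRNA promoters were narrower and lower than at coding promoters. The median width was between 617 and 912.5 bp in the 6 lists, against 1059.5 to 1945 bp at coding promoters, and the median summit held between 33 and 49.5 fragments. Each peak was ranked by column 7, the fold enrichment over the local background, as a percentile of all peaks of its list, and a gene took the rank of its strongest peak. LncRNA genes with a peak had a median rank of 63.1 under vehicle and 50.2 under curcumin in *GFI1-36S*, 62.4 and 65.7 in *-36N*, and 65.0 and 57.8 in *-KD* mice. At coding promoters the medians were 87.0, 77.4, 86.5, 88.6, 86.1 and 82.9. A rank of 90 or more was reached by 8.13% to 10.3% of the lncRNA genes with a peak and by 22.6% to 44.6% of the coding genes.

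Across the lists, 4581 lncRNA genes had a peak in none and 741 (13.9%) in at least 1. All 6 lists had a peak at 180 (3.38%) of the lncRNA genes, and 5 lists at 164, of which 151 were missing from the *GFI1-36S* curcumin list alone. Of 1459 coding genes in 5 lists, 1338 were likewise missing from that list alone. Without that library, 331 lncRNA genes had a peak in all 5 others. Over all annotated genes, 21.0% had a peak in all 6 lists. Of the genes with any peak, 24.3% of the lncRNA genes and 73.8% of the coding genes had it in every list. A single list accounted for 181 (3.40%) of the lncRNA genes, against 3.28% of coding and 2.83% of all annotated genes. The 181 lay in the *GFI1-36N* curcumin list for 70, the *GFI1-KD* vehicle list for 31 and the *GFI1-36S* vehicle list for 26. The *GFI1-36S* curcumin list held 25, the *GFI1-36N* vehicle list 20 and the *GFI1-KD* curcumin list 9. The *GFI1-36N* curcumin list, the longest, also held the most of the 719 coding genes in a single list, at 236. The median rank was 28.5 for peaks of genes in 1 list, 48.9 for those in 4 lists and 77.8 for those in all 6. Genes in few lists thus had the lower ranks.

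The highest mean ranks were found at *Neat1* and 9 other members. *Neat1*, the scaffold RNA of paraspeckles, had ranks of 99.6 with vehicle and 98.5 with curcumin in *GFI1-36S*, 99.35 and 99.5 in *-36N*, and 99.7 and 99.5 in *-KD* mice. Its fold enrichment was 39.5, 25.5, 35.1, 39.8, 45.2 and 40.1 in the same order, from 142 to 330 fragments at the summit, which lay 54 to 875 bp downstream of the nearest TSS. Its neighbour *Malat1*, the abundant RNA of nuclear speckles, had ranks of 98.2, 93.8, 98.7, 99.4, 98.6 and 94.0, with the summit outside the window in the *GFI1-36S* curcumin list alone, at 1492 bp. The lowest ranks of *Malat1* were those of the *GFI1-36S* and *GFI1-KD* curcumin lists.

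The other members of the leading 10 were *6720427I07Rik*, *B930059L03Rik*, *1700031P21Rik*, *Gm6410*, *Gm11205*, *Gm27017*, *Gm14321* and *C030034I22Rik*. Their ranks lay between 91.9 and 99.9 in all lists. *6720427I07Rik* had 99.6, 99.0, 99.2, 99.6, 99.5 and 98.8, with its summit 158 to 290 bp downstream of its only TSS. *1700031P21Rik* was reached by a peak with its summit outside the window, at −2404 to −1318 bp from the TSS (negative for upstream), in every list. The lowest of these ranks, 91.9, was that of *Gm11205* and *Gm14321* in the *GFI1-36S* curcumin list.

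The genes of X inactivation divided in a single library. *Xist* coats the inactive X chromosome of female cells and silences it, and *Jpx* and *Ftx* lie beside it in the X inactivation centre. *Xist* had ranks of 88.2 with vehicle and no peak with curcumin in *GFI1-36S*, 85.1 and 88.1 in *-36N*, and 86.8 and 84.9 in *-KD* mice. Its peak was 3564 to 3827 bp wide with 113 to 161 fragments and its summit lay 691 to 1107 bp downstream of the nearest TSS, outside the window in 4 of 5 lists. *Jpx* had a peak in all 6 lists, at 98.4, 91.0, 96.7, 98.7, 94.0 and 98.2, as did *Ftx* at 95.2, 75.7, 92.3, 93.8, 87.5 and 91.9. The *GFI1-36S* curcumin library, where the *Xist* peak was missing, was also the 1 with peaks at 3 genes of chromosome Y. With the *GFI1-36S* treatments exchanged, the library without the *Xist* peak becomes the vehicle library.

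Hosts of microRNAs differed in how often they were marked. Of 6 hosts among the members, 3 had a peak in all lists, 1 in 5 and 2 in none. *Mir142hg*, the host of the blood-specific miR-142, had ranks of 97.0, 89.5, 98.8, 98.5, 97.8 and 95.5, with the summit outside the window with vehicle in *GFI1-KD* mice, at 1295 bp. *Mir17hg*, the host of a microRNA cluster of proliferating cells, had 91.1, 96.55, 85.3, 94.7, 87.4 and 78.2, and its rank was higher with curcumin in *GFI1-36S* and *-36N* and lower in *-KD* mice. Its summit lay outside the window, at −1374 to −1234 bp from the TSS. *Mir670hg* had 90.5, 89.9, 95.01, 90.2, 88.3 and 91.9. *Mir155hg*, the host of miR-155 of activated lymphoid and myeloid cells, had 62.6, no peak, 68.4, 68.4, 69.4 and 29.9. *Mir124a-1hg* and *Mir9-3hg*, which host microRNAs of neurons, had no peak in any list.

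All 4 hosts of small nucleolar RNAs among the members had a peak in all 6 lists. *Snhg6* had ranks of 95.3, 97.6, 90.5, 96.0, 90.2 and 86.4, *Snhg12* between 86.5 and 92.8, *Snhg20* between 76.2 and 89.7, and *Epb41l4aos* between 86.8 and 97.1. Most Snhg genes were not members, because they carry another biotype, have no window kept or are not in the annotation by that name. In the group of p53, apoptosis and the cell cycle, 4 of 5 members had a peak in every list. *Trp53cor1* (lincRNA-p21), a p53 target beside *Cdkn1a*, had 78.1, 39.0, 75.5, 81.3, 70.5 and 48.0, so that its ranks with curcumin in *GFI1-36S* and *-KD* mice lay below all others. *Pvt1*, the neighbour of *Myc*, had 78.85, 73.5, 81.0, 81.5, 74.8 and 61.8. *Lncpint* lay between 48.9 and 81.2. *Lockd*, downstream of *Cdkn1b*, lay between 90.3 and 98.8, with the summit at −2111 to −1786 bp from its TSS. *Dubr* had a peak in all lists but that of *GFI1-36S* curcumin, at 73.5 to 88.8.

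Of 4 members grouped with blood and immune cells, *Mir142hg* and *Mirt1* had a peak in all lists. *Mirt1* had ranks of 78.4, 51.4, 78.9, 76.0, 81.9 and 70.8. *Ptgs2os2*, beside the prostaglandin synthase gene *Ptgs2*, had 77.0, no peak, 81.4, 79.2, 77.0 and 59.8. *Ifngas1*, beside the interferon gamma gene, had 1 weak peak, at rank 23.9 with vehicle in *GFI1-36N* mice. *Mirt1*, *Ptgs2os2* and *Mir155hg* ranked lower or had no peak with curcumin in *GFI1-36S* and *-KD* mice, the general direction of lncRNA genes in these pairs. In *GFI1-KD* mice promoters of 12 neutrophil genes had a peak at 12 with vehicle and 8 with curcumin, and those of 5 monocyte genes at 5 with each. The part of the cell mixture was not tested.

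Imprinted members and those of other tissues were mostly unmarked, with no peak at 3 of 3 and 5 of 7. So were lncRNA genes in general, of which 86.1% had no peak in any list. *Meg3*, *Mirg* and *H19* had no peak in any list, and neither had *Hotair* of the Hoxc cluster nor *Rmst*, *Miat*, *Pantr1* and *Gm26917*. *Bvht*, described in heart development, had 1 peak, at rank 50.4 with curcumin in *GFI1-36N* mice, whose summit lay outside the window. *Lncenc1*, known from embryonic stem cells, had ranks of 52.2 and 43.7 in *GFI1-36N* and 44.9 with vehicle in *GFI1-KD* mice, also from peaks with the summit outside the window. In all, 84 gene names were listed by role, and 33 of them were members. The others carry another biotype, have no window kept or are not in the annotation by that name. Of the 33 members, 16 had a peak in every list, 7 in 1 to 5 lists and 10 in none, against 3.38%, 10.5% and 86.1% of all lncRNA genes.

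**Figure D3:**
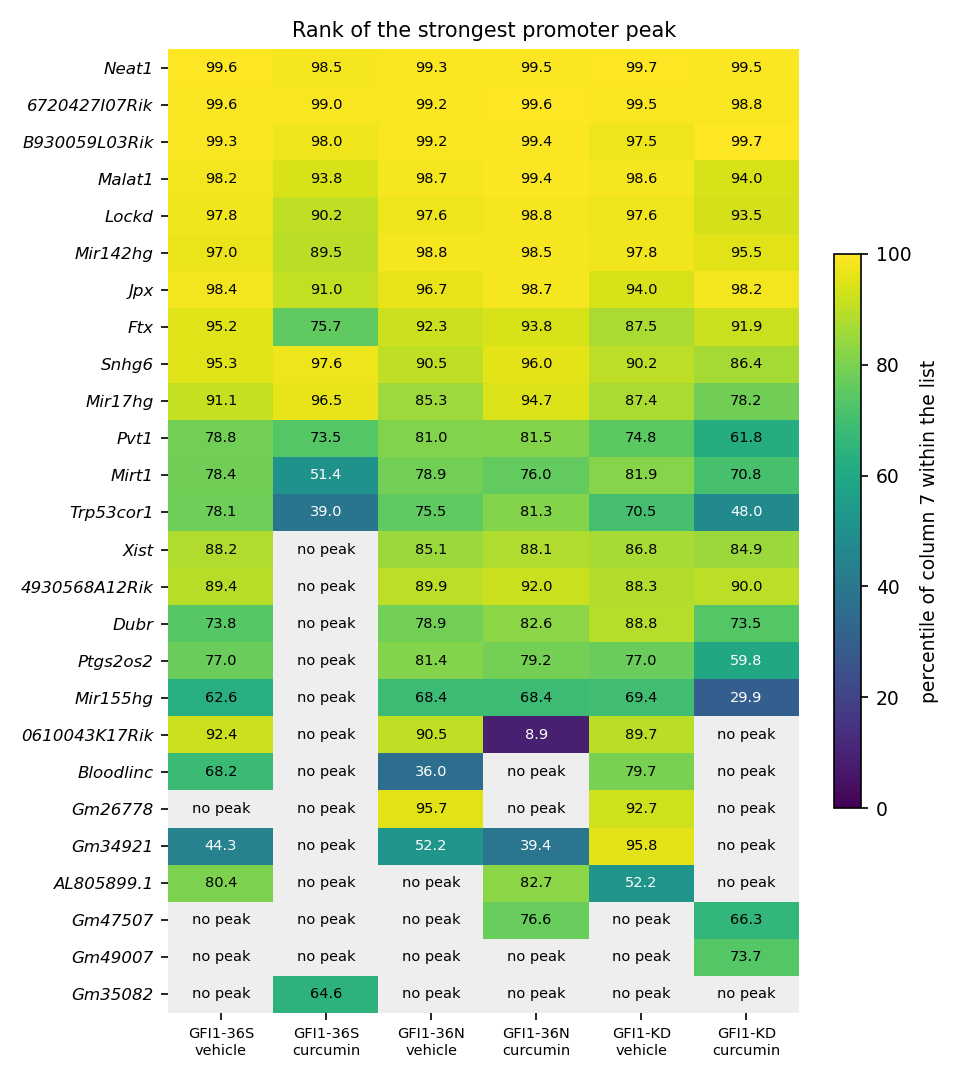
Rank of the strongest promoter peak of 26 named lncRNA genes (rows) in the 6 libraries (columns), as a percentile of fold enrichment within the list, with 1 library per column and grey for no peak. The upper rows are marked in every library. *Xist* and the 4 genes under it lack a peak in the *GFI1-36S* curcumin library alone, and *Bloodlinc* has a peak in the vehicle libraries alone.

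Curcumin and vehicle were compared within each genotype by which promoters had lost or gained a peak. In *GFI1-36S* mice, the peak was shared by 201 lncRNA genes, found under vehicle alone (lost) at 293 and under curcumin alone (gained) at 35. The lost share, of all promoters that changed, was 89.3% (85.5% to 92.2%). The 293 genes were 55.4% and the 35 were 6.62% of the lncRNA genes with a peak in the pair, against 20.9% and 3.06% over all annotated genes. With the treatments exchanged, the lost share was 10.7%. In *GFI1-36N* mice, the peak was shared by 435 genes, lost at 52 and gained at 149, a lost share of 25.9% (20.3% to 32.3%). These were 8.18% and 23.4% of the genes with a peak, against 3.05% and 8.26% over all annotated genes. In *GFI1-KD* mice, the peak was shared by 365 genes, lost at 127 and gained at 47, a lost share of 73.0% (65.9% to 79.0%). These were 23.6% and 8.72%, against 9.58% and 1.89% over all annotated genes.

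The direction of change in each pair was also that of the coding genes, with lost shares of 89.0%, 23.7% and 84.5% in *GFI1-36S*, *-36N* and *-KD* mice. In *GFI1-KD* mice the coding share, with an interval of 82.1% to 86.6%, lay above that of the lncRNA genes. Fewer lncRNA than coding promoters shared the peak. Of the genes with a peak in either library, both libraries had it at 38.0% of the lncRNA (34.0% to 42.2%) and 81.5% of the coding genes in *GFI1-36S*, 68.4% (64.7% to 71.9%) and 92.2% in *-36N*, and 67.7% (63.7% to 71.5%) and 92.0% in *-KD* mice. The peaks that were lost or gained ranked below the shared ones. Their medians were 51.4 and 32.7 in *GFI1-36S*, 32.8 and 43.7 in *-36N*, and 44.9 and 18.1 in *-KD* mice. Shared peaks had medians of 78.8 under vehicle and 54.5 under curcumin in *GFI1-36S*, 65.4 and 72.2 in *-36N*, and 69.4 and 60.2 in *-KD* mice. The lists of each pair also differ in length in the same direction as the lost share. When the 20354 peaks with the highest −log10 p were taken from every list, the lost shares were 72.0%, 40.8% and 68.7%.

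**Figure D4:**
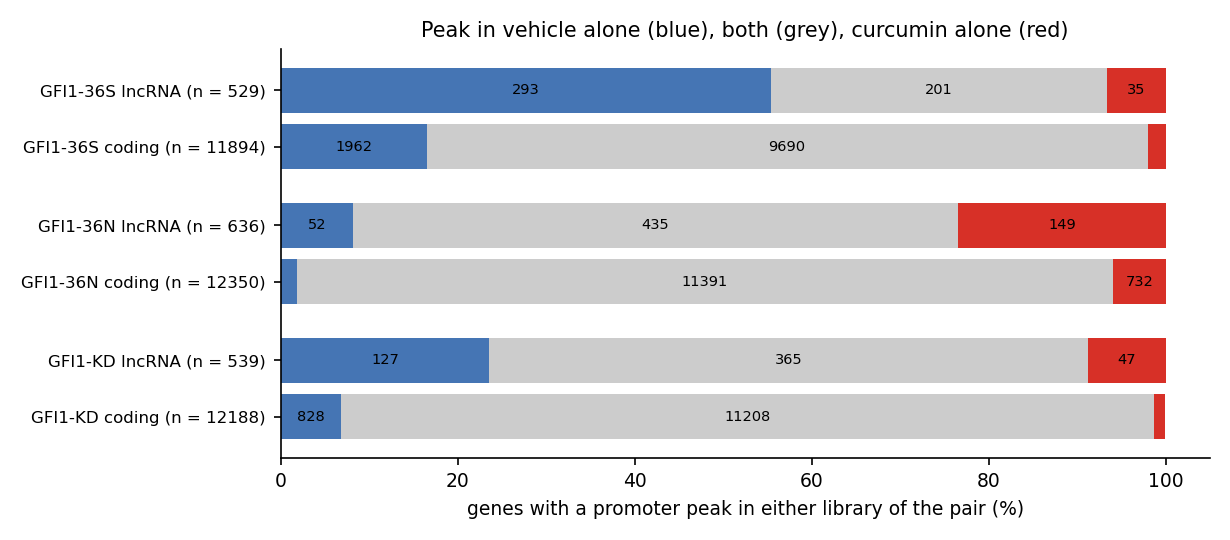
Share of lncRNA and protein-coding genes with a promoter peak in vehicle alone (blue), both libraries (grey) or curcumin alone (red), as a percentage of the genes with a peak in either library of the pair, for each genotype with 1 library per treatment. Numbers are genes, shown on parts above 4%. The grey part is 38.0%, 68.4% and 67.7% for lncRNA and 81.5%, 92.2% and 92.0% for coding genes.

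Ranks moved in the same directions. Over the genes with a peak in either library, the median change in rank from vehicle to curcumin, with 0 for no peak, was −33.0 in *GFI1-36S* (95% interval of the median over genes −36.6 to −31.1), 6.17 in *-36N* (4.96 to 7.39) and −8.77 in *-KD* mice (−10.6 to −6.60). At coding promoters it was −13.0, 2.61 and −4.14. Among lncRNA genes with a peak in both libraries, 175 ranked lower and 26 higher with curcumin in *GFI1-36S*, 111 lower and 324 higher in *-36N*, and 277 lower and 88 higher in *-KD* mice. A longer list contains more low peaks, under which a given peak stands at a higher percentile. With the 20354 top peaks of each list the medians were −6.65, 0.228 and −1.51. The *GFI1-36N* interval over genes, −0.897 to 1.65, then included 0, and it does not measure the spread between mice. Of 486 lncRNA genes with a peak in both the *GFI1-36N* and the *GFI1-KD* pair, 270 ranked higher with curcumin in *-36N* and lower in *-KD* mice, 31 the reverse, 91 higher in both and 94 lower in both. The first of these was 55.6% of the lncRNA genes and 61.5% of 11801 coding genes, and these ranks come from lists of unequal length.

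Of 422 lncRNA genes with a peak in every pair, 6 (1.42%) had it in all 3 vehicle lists and in no curcumin list, and 0 had the opposite pattern. Over all annotated genes with a peak in every pair the shares were 0.354% and 0.0136%. With the *GFI1-36S* treatments exchanged, 0 lncRNA genes had the first pattern and 1 the opposite. The 6 genes were *Bloodlinc*, *A730036I17Rik*, *Gm32281*, *Gm36211*, *A630009H07Rik* and *1110019B22Rik*, of which *A730036I17Rik*, *Gm32281*, *Gm36211* and *1110019B22Rik* are named after their values were seen. *Bloodlinc* is an erythroid lncRNA whose nearest coding TSS, at 10817 bp, is that of *Slc4a1*, which encodes the band 3 protein of the red cell membrane. It had ranks of 68.2, 36.0 and 79.7 with vehicle in *GFI1-36S*, *-36N* and *-KD* mice, from 41, 25 and 107 fragments. The *GFI1-36N* summit lay 522 bp downstream of the TSS and the other summits 1347 and 1248 bp downstream, outside the window. Promoters of 8 erythroid genes had a peak at 8 under vehicle and 1 under curcumin in *GFI1-36S*, 6 and 6 in *-36N*, and 8 and 3 in *-KD* mice, and the part of the cell mixture in the *Bloodlinc* values was not tested. Of the 422 genes, 77 (18.2%) ranked lower with curcumin in all 3 pairs and 2 (0.474%) ranked higher, against 17.5% and 1.90% over all annotated genes. Under the exchange 2 ranked lower and 73 higher.

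*0610043K17Rik* had the highest-ranked peak of all those missing from the window with curcumin in *GFI1-36S* mice. As labelled, its ranks with vehicle and curcumin were 92.4 and no peak in *GFI1-36S*, 90.5 and 8.92 in *-36N*, and 89.7 and no peak in *-KD* mice. The fold enrichment was 25.04, 20.7 and 25.3 with vehicle and 2.94 in *GFI1-36N* mice given curcumin, where 16 fragments lay at the summit. The vehicle summits stood 2495 to 2559 bp downstream of the TSS, so that the window was reached by the edge of a peak 3543 to 4303 bp wide. The *GFI1-36N* curcumin peak was 260 bp wide with its summit inside the window. Whether the wide peak remained beyond the window with curcumin was not examined. The gene has 4 exons in its longest transcript and lies on chromosome 4 from 101353783 to 101399181, with the nearest coding TSS, that of *Ak4*, at 52626 bp.

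Other strong peaks lost in a pair also reached the window by a flank alone, with the summit outside it and a coding gene nearby. *Gm26778*, 3331 bp from a TSS of *Kctd12*, had ranks of 95.7 and 92.7 with vehicle in *GFI1-36N* and *-KD* mice and no peak in the other lists, and the summits lay 3890 and 3845 bp away. *Gm34921*, 4805 bp from a TSS of *Dusp6*, had 44.3 and no peak in *GFI1-36S*, 52.2 and 39.4 in *-36N*, and 95.8 and no peak in *-KD* mice. The *GFI1-KD* vehicle peak of *Gm34921* was 8900 bp wide with its summit 6773 bp downstream of the lncRNA TSS, and it covered that TSS of *Dusp6*. These values describe the reach of a peak into the window. Whether the peaks remained beyond it with curcumin was not examined. Where only a summit inside the window was counted, the lost share in *GFI1-KD* mice was 66.9% in place of 73.0%.

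Of the peaks lost in *GFI1-36S* mice with the summit inside the window, that of *4930568A12Rik* ranked highest. It had 89.4 and no peak in *GFI1-36S*, 89.9 and 92.0 in *-36N*, and 88.3 and 90.02 in *-KD* mice, with summits at −143 to −77 bp from the TSS and 131 to 173 fragments. *Gm13572*, *Gm29340* and *AI839979* were likewise missing from the *GFI1-36S* curcumin list alone, at ranks of 72.7 to 87.7 elsewhere. *Gm43660* shared the peak of *AI839979*, with the summit at −2009 to −1798 bp from its own TSS, outside its window.

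Among the peaks found with curcumin alone in *GFI1-36S* mice, *2600014E21Rik* and *Gm13652* shared a peak at rank 65.0 with its summit inside the window of *Gm13652* and at −1119 bp from the TSS of *2600014E21Rik*, and both had 22.1 with curcumin in *GFI1-36N* mice. *Gm35082*, *AC140469.1* and *Gm41386* had 64.6, 56.4 and 55.9 in that list and no peak in any other. *Gm11454* and *Gm37552* were also found there alone, at 48.9 and 44.0. In *GFI1-36N* mice, *AL805899.1*, *AC102496.1*, *Gm43101*, *Gm47507* and *Gm42047* had 82.7, 78.5, 77.7, 76.6 and 76.3 with curcumin and no peak with vehicle. *AL805899.1* also had ranks of 80.4 and 52.2 with vehicle in *GFI1-36S* and *-KD* mice, so that a peak was present under both treatments. *Gm47507*, 22431 bp from a TSS of *Klf6*, had a peak with curcumin in *GFI1-36N* and *-KD* mice, at 76.6 and 66.3, and in no other list, with the summit 1223 and 1230 bp downstream of the TSS. In *GFI1-KD* mice, *Gm49007* ranked 73.7 with curcumin and had no peak in any other list. This peak was 4768 bp wide with its summit 1405 bp downstream of the TSS, outside the window. *Gm1070*, *Gm26520* and *Gm4598* had 66.1, 64.9 and 62.0 with curcumin in *GFI1-KD* mice, no peak with vehicle there, and peaks in both *GFI1-36N* lists.

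Large changes were also found among promoters with a peak in both libraries. In *GFI1-36S* mice, *Gm33728* went from 12 to 70.9, *Gm39556* from 38.0 to 93.1 and *Gm34590* from 28.3 to 70.1, while *CT025659.1* went from 74.5 to 1.33 and *Gm15326* from 74.5 to 8.12. In *GFI1-36N* mice, *Gm33682* went from 10.7 to 96.6, *AC123853.1* from 4.59 to 66.2 and *Gm49735* from 56.1 to 6.42, the largest fall in these mice after that of *0610043K17Rik*. In *GFI1-KD* mice, *Gm29291* went from 1.4 to 46.7 and *AC132251.1* from 71.1 to 2.39. For 5 of these genes the higher value came from a peak with its summit outside the window and the lower value from a summit inside it. The outer summits lay 3906 bp from the TSS for *Gm39556*, −2497 bp for *Gm33682*, 1865 bp for *CT025659.1*, 1090 bp for *Gm49735* and 1028 bp for *AC132251.1*. At *Gm49735* the inner summit lay at 997 bp, just within the window.

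Between the vehicle libraries of different genotypes the lncRNA promoters, as labelled, differed about equally in both directions. *GFI1-36N* and *-36S* mice shared 413 genes with a peak, with 81 (14.3%) in *GFI1-36S* alone and 74 (13.03%) in *-36N* alone, against 5.12% and 4.77% over all annotated genes. Between *GFI1-KD* and *-36S* mice 411 genes were common, 83 were found in *GFI1-36S* alone and 81 in *-KD* alone, 14.4% and 14.1% against 3.66% and 6.78%. *GFI1-KD* and *-36N* mice shared 409, with 78 in *-36N* alone and 83 in *-KD* alone, 13.7% and 14.6% against 4.11% and 7.56%. The median changes in rank were −0.293, −0.115 and 0.618, each with an interval over genes that included 0. Such an interval does not measure the spread between mice. The vehicle libraries share a treatment but differ in genotype. In total, the shares that changed between them were 27.3% to 28.5% of the lncRNA genes with a peak. Between vehicle and curcumin they were 31.6% and 32.3% in *GFI1-36N* and *-KD* mice and 62.0% in *GFI1-36S* mice. Over all annotated genes these totals were 9.89% to 11.7%, 11.3%, 11.5% and 24.0%. The vehicle lists also lie closer to each other in length than the 2 lists of any genotype do. With the *GFI1-36S* treatments exchanged, the differences were uneven, with 40 genes in *GFI1-36S* alone and 291 in *-36N* alone, and 44 in *GFI1-36S* alone and 300 in *-KD* alone. The vehicle comparisons share their libraries with each other and with the curcumin comparisons.

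Base composition went with the number of lists. The median G + C of the window around the most upstream TSS was 44.1% for the 4581 genes with no peak, 47.1% for the 561 with a peak in 1 to 5 lists and 49.9% for the 180 in all 6. The median ratio of observed to expected CpG was 0.188, 0.260 and 0.412 in these classes. Windows rich in CpG, with a ratio of at least 0.6 and at least 50% G + C, made up 0.502%, 2.14% and 16.1%. Coding promoters in all 6 lists had a median ratio of 0.636, and 50.3% of them were rich in CpG, so that lncRNA promoters with the mark in every list still had fewer CpG.

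**Figure D5:**
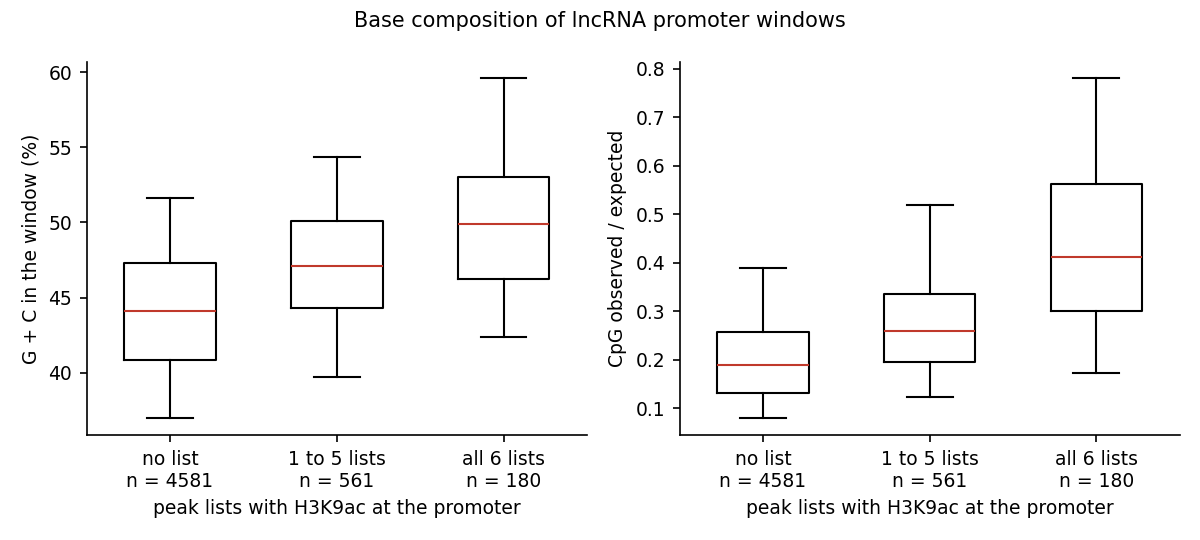
G + C content in % (left) and ratio of observed to expected CpG (right) of the window around the most upstream TSS kept, for lncRNA genes with an H3K9ac peak in no list, in 1 to 5 lists and in all 6. Boxes span the quartiles with the median in red, and whiskers the 5th to 95th percentile of genes. The median CpG ratio rises from 0.188 over 0.260 to 0.412.

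Of the motifs searched on both strands in the 300 bases around the most upstream TSS, the Sp1 motif GGGCGG was found at 38.3% of the lncRNA genes in all 6 lists and 6.05% of those in none, against 7.84% of all lncRNA and 43.0% of all coding promoters. The ETS motif CCGGAAG was found at 13.9% and 2.34%, against 3.03% and 10.8% of all lncRNA and coding promoters. The TATA box was found at 11.7% and 16.5% (16.3% and 12.6%), the RUNX motif at 5% and 2.36% (2.57% and 1.55%), the AP-1 motif at 8.33% and 6.31% (6.48% and 4.59%) and the GATA motif at 5.56% and 4.26% (4.36% and 2.80%). The Sp1 motif holds only C and G, and the ETS motif mostly these. No motif was adjusted for base composition, and its part in these differences was not tested.

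LncRNA genes with the mark also lay nearer to coding genes. The median distance to the nearest coding TSS was 86.5 kb for genes with no peak, 38.6 kb for 1 to 5 lists and 23.8 kb for all 6. The nearest coding gene had a promoter peak in all 6 lists for 34.8%, 59% and 69.4% of them. Over all lncRNA genes this share was 38.6%, and of all coding genes 43.4% had a peak in all 6 lists. Windows with an edge 2 to 3 kb from a coding TSS had a peak in at least 1 list at 22.5%, and those 3 to 5 kb away at 34.5%. The share was 26.6% at 5 to 10 kb, 21.3% at 10 to 50 kb and 9.34% over 50 kb away. A window in the body of a coding gene was found for 4.17%, 6.95% and 6.11% of the genes in these classes, and the peak also touched a coding promoter for only 3 to 8 of the lncRNA genes with a peak in each list. More than 1 annotated transcript was found for 24.2%, 31.2% and 43.9% of the genes.

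The nearest coding promoter was also followed where a lncRNA promoter lost or gained its peak. Of the 127 lncRNA genes that lost the peak in *GFI1-KD* mice, 92 had a nearest coding promoter with a peak in both libraries, 30 in neither and 5 (3.94%) under vehicle only, against 13 of 365 (3.56%) for the lncRNA genes with a peak in both libraries. In *GFI1-36N* mice it was 1 of 52 (1.92%), against 2 of 435 (0.46%). For *GFI1-36S* mice, 57 of 293 (19.5%) had a nearest coding promoter that had also lost its peak, against 20 of 201 (9.95%) of the lncRNA genes with a peak in both libraries. Of the 149 lncRNA genes that gained the peak in *GFI1-36N* mice, the nearest coding promoter was marked in both libraries for 113 (75.8%). It was marked in neither for 30 (20.1%) and with curcumin alone for 4 (2.68%). Among the 435 with a peak in both libraries these shares were 80.9%, 17.5% and 1.15%. With curcumin alone it was marked for 5 of 35 gained genes (14.3%) in *GFI1-36S* mice, against 0 of 201. In *GFI1-KD* mice it was 0 of 47, against 1 of 365.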

How the data were processed

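H3K9ac was measured by ChIP-seq in 6 libraries of BM cells, 1 per genotype and treatment. An input and a rabbit IgG sample were not used here. After trimming with Trim Galore, the authors aligned reads to mm10 (BWA-MEM), and MACS2 was run on every library. Regions of the ENCODE black list were removed. Versions, the control of each list, the threshold and the handling of duplicates are not given in the sources used here. The deposited fold enrichment (column 7, a ratio to local background at the peak's summit) ranked the peaks. The −log10 p and −log10 q values deposited by the authors served to limit the lists, and the deposited integer score was not needed. The values are not normalised between libraries, so ranks within a list were used.

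TSSs of all transcripts came from GENCODE M21 (GRCm38, the assembly of mm10). A gene had a peak when a peak overlapped any of its windows by at least 1 bp. The number of fragments under a summit was worked out from the MACS2 fold and p, within 0.002 on the −log10 p scale, for 100% of the peaks of every list. The lists hold no read totals. Python 3.11.15, numpy 2.4.6, pandas 2.3.3 and scipy 1.17.1 were used. Shares have Wilson 95% intervals and medians an interval from order statistics over genes, which cover counting error only. The steps were tested on simulated data.

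The members, gene lists, marker lists and the rule for named genes were chosen with earlier results of these data known. Genes named were those listed by role, the 10 with the highest mean rank in all 6 lists, per genotype the 5 highest-ranked with a peak in 1 library alone and the 5 largest changes in each direction, and the 5 highest-ranked in, or missing from, the *GFI1-36S* curcumin list alone. Not all of them are reported. The names of the *GFI1-36N* lists point to different allele states of the mice, which the labels do not state.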

Additional observations from a re-analysis of the deposited data

Results flagged for a closer look

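As labelled, the *GFI1-36N* pair moved the opposite way to the other genotypes. Lost peaks made up 25.9% of the changed lncRNA promoters in *GFI1-36N*, 89.3% in *-36S* and 73.0% in *-KD* mice. The median change in rank was 6.17 in *GFI1-36N*, −33.0 in *-36S* and −8.77 in *-KD* mice. With 1 library per treatment and genotype, these differences between the genotypes were not tested. With the *GFI1-36S* treatments exchanged, *GFI1-36S* mice had a lost share of 10.7% and a median change of 33.0, so that *-KD* mice alone stood opposite. When lists were limited to equal length, the *GFI1-36N* median was 0.228 with an interval of −0.897 to 1.65. The file names of the *GFI1-36N* pair give its libraries different allele states, which cannot be told apart from the treatment.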

How the results depend on the processing

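Each of the 7 results was recomputed under 9 to 12 alternatives, 73 values in all. Of these, 57 stayed within the interval of the reported value (for the count, within 1.5 times), 14 moved and 2 reversed. Both reversals came from exchanging the *GFI1-36S* treatments, which gave a lost share of 10.7% and a median rank change of 33.0. When lists were limited to equal length, the lost share was 72.0% in *GFI1-36S* and 40.8% in *-36N* mice, and the median rank changes were −6.65, 0.228 and −1.51 in *GFI1-36S*, *-36N* and *-KD* mice. With a −log10 q of at least 5 the medians were −27.3, 4.37 and −4.40, and over the shared peaks alone −17.5, 4.32 and −5.69. The 180 genes with a peak in all lists became 280 with all long noncoding biotypes (of 7711 genes), 291 when windows were counted and 331 without the *GFI1-36S* curcumin library. The last of these and the use of coding transcripts alone (182 genes) were chosen after seeing the data. No paired analysis was possible because each group has 1 library. Peaks with few fragments lie near the threshold, so a missing peak is not a shown absence of the mark.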
